A study of Mus musculus with 6 samples.

Results

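The 10 genes described here are markers and regulators of spermatogonia, the mitotic germ cells at the base of the seminiferous tubule: Zbtb16, Gfra1, Id4, Sall4, Kit, Stra8, Dmrt1, Sohlh1, Sohlh2 and Uchl1. They were chosen by symbol for their known roles, and all 10 were found among the 25165 gene symbols of the tables, each on a single row. Total RNA came from whole testes of C57BL/6 mice aged 8 weeks, in 6 libraries, of which 3 have KO in their title and 3 have WT. By the study's design KO mice lack NR_038002, the lncRNA that its title calls Teshl; that title speaks of inactive Y-linked gene copies and of litters with a changed share of females. The genotype field contradicts the titles in all 6 libraries: it gives wild type for each KO-titled library and NR_038002-/- for each WT-titled library. Groups here follow the titles, and each difference is KO-titled minus WT-titled. How the allele was made is not given in the labels, nor is it stated that replicates are different mice; the p-values rest on the spread between libraries alone, and that spread may be technical.

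Spermatogonia begin as a small undifferentiated pool that renews itself in response to glial cell line-derived neurotrophic factor (GDNF) from Sertoli cells, which acts through the co-receptor GFRA1 and the kinase RET. Zbtb16 (also called PLZF), Sall4 and Id4 encode nuclear factors of that pool. Pulses of retinoic acid move the cells on to the differentiating state, in which the bHLH factors SOHLH1 and SOHLH2 act, the receptor KIT binds KIT ligand from Sertoli cells, and STRA8 prepares entry into meiosis. DMRT1 holds back meiotic entry while the cells still divide by mitosis. In an adult testis spermatocytes and spermatids far outnumber spermatogonia, so these transcripts are diluted in total testis RNA. Some of them also come from other cells: Dmrt1 from Sertoli cells, Kit from Leydig cells and, as a truncated form, from spermatids.

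Promoter sequences are shown for the members with the largest differences described below (Uchl1, Stra8 and Kit) and for Sohlh1, whose product and partner bind E-boxes. RefSeq (GRCm38.p6) held a promoter for 7 of the 10 members, and Zbtb16, Sall4 and Dmrt1 are named only. The 250 bases before each start were searched on both strands for AGGTCA, the half-site of retinoic acid receptors, for the E-box CANNTG, and for CACGTG, an E-box that CANNTG includes. Stra8 held 2 AGGTCA half-sites, whose first bases lay 194 and 38 bases before the start; 2 or more occurred in 1.36% of 32851 promoters and at least 1 in 14%. Its window lies within the first exons of a longer transcript in GENCODE M21, so that 30 bases around each half-site are printed. Sohlh1 held 3 CACGTG motifs among 5 E-boxes, with 3 or more CACGTG in 0.0609% of promoters; a single AGGTCA there overlaps the second of them. Neither motif was found in the windows of Kit and Uchl1, whereas 66.2% of promoters held an E-box. RefSeq held 2 promoters for Kit, and only 1 of them was searched. Gfra1 held 3 E-boxes, Sohlh2 held 1 and Id4 held none, and none of these contained AGGTCA. Capitals mark AGGTCA in Stra8 and CACGTG in Sohlh1, each sequence runs 5′ to 3′ along the gene, and those of Kit and Uchl1 end where the annotated first exon starts.
Stra8, first site (chr6:34920742-34920771, plus strand): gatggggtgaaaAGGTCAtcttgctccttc
Stra8, second site (chr6:34920898-34920927, plus strand): gcctggggtaccAGGTCAgttttttacctg
Sohlh1 (chr2:25847249-25847498, minus strand): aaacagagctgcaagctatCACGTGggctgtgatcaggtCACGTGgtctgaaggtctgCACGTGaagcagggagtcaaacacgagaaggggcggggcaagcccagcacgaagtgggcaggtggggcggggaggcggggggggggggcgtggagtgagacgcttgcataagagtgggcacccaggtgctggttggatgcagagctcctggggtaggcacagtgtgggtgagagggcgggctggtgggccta
Kit (chr5:75574737-75574915, plus strand): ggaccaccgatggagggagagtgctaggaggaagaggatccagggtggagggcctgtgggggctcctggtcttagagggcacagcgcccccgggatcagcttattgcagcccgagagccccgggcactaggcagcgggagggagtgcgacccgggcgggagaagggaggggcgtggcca
Uchl1 (chr5:66675871-66676090, plus strand): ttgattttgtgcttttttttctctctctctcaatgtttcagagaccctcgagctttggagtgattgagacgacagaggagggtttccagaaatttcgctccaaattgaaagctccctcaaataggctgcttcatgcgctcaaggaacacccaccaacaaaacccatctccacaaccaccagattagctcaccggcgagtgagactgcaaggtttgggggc

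Values are given in FPKM, fragments per kilobase of transcript relative to the mapped total. The removed gene checks the titles: 1700027A15Rik, the gene of the named transcript, stood at 0.385 FPKM or was listed at 0 in the KO-titled libraries, against 989 to 1081 FPKM in WT-titled libraries (log2 fold change -9.86, SE 0.13, limma adjusted p = 2.91e-08). Judged by the spacing of its low values, a library held 27300000 to 39300000 fragments, so that 3 fragments on a 1 kb transcript equal 0.0764 to 0.110 FPKM (counting error only). Of 12952 genes tested with limma, 102 (0.788%) were higher and 47 (0.363%) lower in KO-titled libraries, together 1.15% (Benjamini-Hochberg adjusted p below 0.05); with upper-quartile scaling 121 were higher and 33 lower. Over all tested genes the median difference was -0.04 on the log2 scale.

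The members spanned a 49.3-fold range of level, from Uchl1 with a mean of 26.2 FPKM over the 6 libraries to Zbtb16 with 0.532 FPKM. Uchl1 made up 45.9% of the summed level, which was 50.6 to 56.4 FPKM in KO-titled libraries and 57.2 to 65.6 FPKM in WT-titled libraries. Of single tested genes, 15.8% likewise had KO-titled libraries below WT-titled libraries without overlap. The sum is weighted to Uchl1, and the difference in it was not tested. Uchl1 lay above 88.6% of all symbols and Zbtb16 above 43.3%. Below Uchl1 came Id4 (7.81 FPKM), Dmrt1 (6.08 FPKM), Sohlh2 (4.15 FPKM), Stra8 (4.05 FPKM), Kit (3.96 FPKM), Gfra1 (2.02 FPKM), Sohlh1 (1.74 FPKM) and Sall4 (0.578 FPKM). The 6-library ranges of Sohlh2 and Stra8 overlapped, as did those of Stra8 and Kit, of Gfra1 and Sohlh1, and of Sall4 and Zbtb16, so the order within those pairs was not beyond the spread. Within a library, however, Gfra1 exceeded Sohlh1 in 6 of 6. The steps from Uchl1 to Id4, Id4 to Dmrt1, Dmrt1 to Sohlh2, Kit to Gfra1 and Sohlh1 to Sall4 held in 6 of 6 libraries without overlap. Every library value of every member was above the count of 3 fragments on its shortest annotated coding transcript. The margin was smallest for Sall4, whose lowest value was 1.76 times that floor. Its shortest coding transcript has 393 bases and its longest 5073, for which the floor would be lower.

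**Figure D1:**
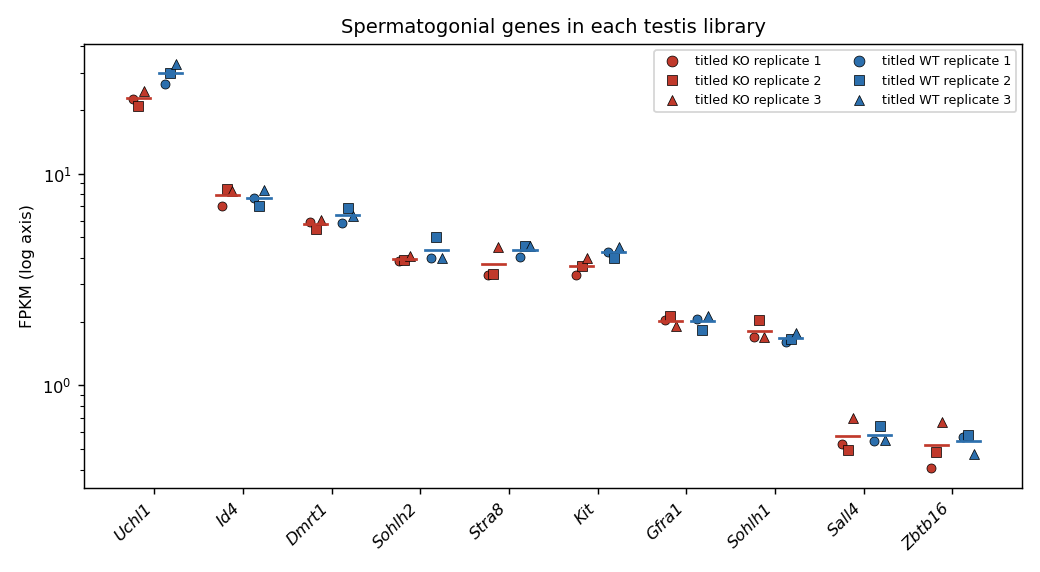
FPKM of the 10 spermatogonial genes (log axis) in each library, KO-titled in red left of WT-titled in blue, with a marker shape per replicate number and a line at each group mean. Uchl1 is the highest gene and the KO-titled libraries (21.0 to 24.5 FPKM) lie below the WT-titled libraries (26.6 to 32.9 FPKM); the lowest genes, Sall4 and Zbtb16, reach 0.704 and 0.674 FPKM in their highest libraries.

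No member passed the test between the groups: of the 8 that averaged 1 FPKM or more in either group, 0 were called by limma, against 1.15% of all tested genes. At an unadjusted p under 0.05, 2 were lower (Uchl1 and Kit) and 0 higher, where 8.89% of all tested genes were lower and 5.38% higher. These 2 were also the members whose groups did not overlap, lower in KO-titled libraries, a pattern seen in 15.8% of all tested genes; the opposite pattern, seen in 5.92%, occurred in none. Negative values were found in 5 of the 8, against 65.7% of all tested genes, and the median log2 fold change of the 8 was -0.11. Zbtb16 and Sall4 stayed under the filter on low values and were tested only without it or with a filter at 0.5 FPKM. In whole testis RNA, fewer cells of a type and less RNA per cell cannot be told apart.

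**Figure D2:**
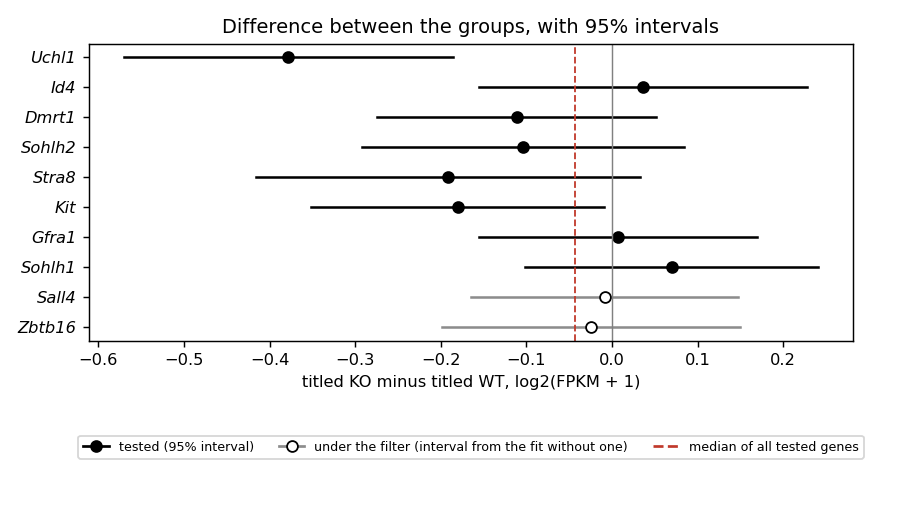
Difference of each gene on the log2(FPKM + 1) scale, KO-titled minus WT-titled, with its 95% interval from limma; open points are genes under the filter, with the interval from the fit without a filter, and the dashed line is the median of all tested genes (-0.04). The intervals of Uchl1 (-0.57 to -0.19) and Kit (-0.35 to -0.01) lie below 0 and the other 8 include it.

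Uchl1 encodes a ubiquitin hydrolase of spermatogonia and neurons. Its level was 22.5, 21.0 and 24.5 FPKM in the KO-titled libraries, against 26.6, 29.99 and 32.9 FPKM in WT-titled libraries. The groups did not overlap, with a gap of 2.05 FPKM between the nearest of them. Uchl1 thus differed by -0.38 in log2 (SE 0.09, limma adjusted p = 0.0864). A smaller p was found for 1.78% of all tested genes. The adjusted p was 0.0483 when the libraries were scaled to equal totals, which made Uchl1 the only member ever called, and it lay between 0.0483 and 0.303 over 15 alternatives. An antisense gene, Uchl1os, overlaps its first exon and was listed at 0 in all 6 libraries. Whether the authors counted by strand is unstated in the labels, so reads of the antisense strand cannot be told apart from those of Uchl1.

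The close relatives of Uchl1 gave other values. Uchl3, a widely expressed hydrolase, stood at 87.9, 92.3 and 83.5 FPKM in KO-titled libraries and at 80.5, 85.3 and 91.6 FPKM in WT-titled libraries (log2 fold change 0.04, limma adjusted p = 0.791). Uchl5, a hydrolase bound to the proteasome, averaged 20.02 ± 0.85 FPKM in KO-titled libraries and 20.1 ± 1.81 FPKM in WT-titled libraries (SD, n = 3 each). The groups overlapped in both genes. Uchl3 exceeded Uchl1 by 3.90, 4.399 and 3.41 times in KO-titled libraries and by 3.03, 2.85 and 2.78 times in WT-titled libraries, a ratio chosen after the values were seen and not tested.

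Among the receptors, Kit, the stem cell factor receptor of differentiating spermatogonia, had 3.32, 3.65 and 3.992 FPKM in KO-titled libraries, against 4.29, 3.998 and 4.53 FPKM in WT-titled libraries. The groups were separated by only 0.00608 FPKM between KO-titled replicate 3 and WT-titled replicate 2. On the log2 scale Kit differed by -0.18 (SE 0.08), with a limma adjusted p of 0.327. The ligand gene Kitl was at 3.79, 3.27 and 3.38 FPKM in KO-titled libraries and 3.92, 3.96 and 3.76 FPKM in WT-titled libraries, which overlapped (log2 fold change -0.12, limma adjusted p = 0.427). Leydig cells carry Kit too. Negative values were found in 9 of 10 Leydig markers, against 65.7% of all tested genes. Of these markers 0 were called by limma, against 1.15% of all tested genes. Their summed level was 1574 to 1804 FPKM in KO-titled libraries and 1744 to 1811 FPKM in WT-titled libraries, with no marker at 0; its part in the Kit difference was not tested.

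Gfra1, the GDNF co-receptor, was nearly level between the groups. It measured 2.03, 2.13 and 1.90 FPKM in KO-titled libraries and 2.07, 1.83 and 2.14 FPKM in WT-titled libraries, and the groups overlapped throughout (log2 fold change 0.01, 95% interval -0.16 to 0.17, limma adjusted p = 0.969). Ret, which encodes the kinase that GFRA1 recruits, lay at 0.0843, 0.0989 and 0.134 FPKM in KO-titled libraries and 0.0683, 0.150 and 0.107 FPKM in WT-titled libraries, and was not tested. These values are close to the floor for a 1 kb transcript, and the floor at the length of Ret itself was not computed. Gdnf itself was also low, at 0.241, 0.298 and 0.213 FPKM in KO-titled libraries and 0.342, 0.166 and 0.254 FPKM in WT-titled libraries. Higher than Gfra1 were its relatives Gfra2, the neurturin co-receptor, at 10.3 ± 1.46 FPKM in KO-titled libraries and 9.59 ± 1.07 FPKM in WT-titled libraries, and Gfra4, the persephin co-receptor, at 9.48 ± 0.50 and 9.04 ± 0.45 FPKM in the same order (SD, n = 3 each). Neither passed (limma adjusted p = 0.666 and 0.649).

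The nuclear factors of the undifferentiated pool showed no separation of the groups. Id4, an inhibitor of bHLH factors and a stem cell marker, had 7.02, 8.48 and 8.27 FPKM in KO-titled libraries and 7.72, 7.003 and 8.37 FPKM in WT-titled libraries (log2 fold change 0.04, 95% interval -0.16 to 0.23, limma adjusted p = 0.846). The KO-titled replicate 1 and WT-titled replicate 2 were the low ones, at almost the same level. Zbtb16, a zinc finger repressor, was at 0.407, 0.482 and 0.674 FPKM in KO-titled libraries and 0.570, 0.586 and 0.475 FPKM in WT-titled libraries. Its lowest and highest values both belonged to KO-titled libraries. Sall4, a zinc finger factor of germ and embryonic stem cells, was at 0.526, 0.492 and 0.704 FPKM in KO-titled libraries and 0.548, 0.645 and 0.551 FPKM in WT-titled libraries. Without a filter the log2 differences were -0.02 for Zbtb16 and -0.01 for Sall4 (limma adjusted p = 0.915 and 0.969).

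Sohlh1 and Sohlh2, which encode partner bHLH factors that drive differentiation, differed from each other in sign and neither passed. Sohlh1 had 1.68, 2.04 and 1.69 FPKM in KO-titled libraries and 1.59, 1.65 and 1.76 FPKM in WT-titled libraries (log2 fold change 0.07, limma adjusted p = 0.659). The libraries of the groups overlapped, with KO-titled replicate 2 the highest. Sohlh2 had 3.87, 3.91 and 4.08 FPKM in KO-titled libraries and 4.01, 5.02 and 4.01 FPKM in WT-titled libraries (log2 fold change -0.10, limma adjusted p = 0.560). There WT-titled replicate 2 stood above the rest and the other libraries lay within 3.87 to 4.08 FPKM. Within a library Sohlh2 exceeded Sohlh1 by 2.30, 1.92 and 2.41 times in KO-titled libraries and by 2.51, 3.04 and 2.27 times in WT-titled libraries.

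Dmrt1, the DM-domain factor that delays meiosis, was at 5.89, 5.47 and 6.04 FPKM in KO-titled libraries and 5.84, 6.88 and 6.34 FPKM in WT-titled libraries. The lowest WT-titled library lay inside the KO-titled range (log2 fold change -0.11, 95% interval -0.27 to 0.05, limma adjusted p = 0.480). Among its relatives Dmrta2, a DM-domain factor known from the developing brain, was lower in KO-titled libraries. It was the only 1 of 20 tested relatives of the members to be called, where 1.15% of all tested genes were called. It was at 2.16, 2.20 and 2.18 FPKM in KO-titled libraries, against 3.20, 3.79 and 3.03 FPKM in WT-titled libraries (log2 fold change -0.45, SE 0.08, limma adjusted p = 0.0332). That call was lost in 8 of 15 alternatives: without a filter (limma adjusted p = 0.083), without robust estimation (0.0502), with the replicate number as a block (0.102), and without KO-titled replicate 1 (0.0706), 2 (0.12) or 3 (0.129) or WT-titled replicate 1 (0.0973) or 2 (0.0732). Dmrtb1, which acts in the passage from mitosis to meiosis, was far more abundant, at 370, 358 and 359 FPKM in KO-titled libraries and 401, 394 and 390 FPKM in WT-titled libraries. Its groups did not overlap (log2 fold change -0.13), a pattern seen, lower in KO-titled libraries, in 15.8% of all tested genes. The limma adjusted p of Dmrtb1 was 0.246. Dmrt3, a relative studied in spinal cord neurons, was at 1.19 ± 0.08 FPKM in KO-titled libraries and 0.993 ± 0.09 FPKM in WT-titled libraries (SD, n = 3 each). Its groups did not overlap either, with the KO-titled libraries higher (log2 fold change 0.14, limma adjusted p = 0.402). That pattern was seen in 5.92% of all tested genes.

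**Figure D3:**
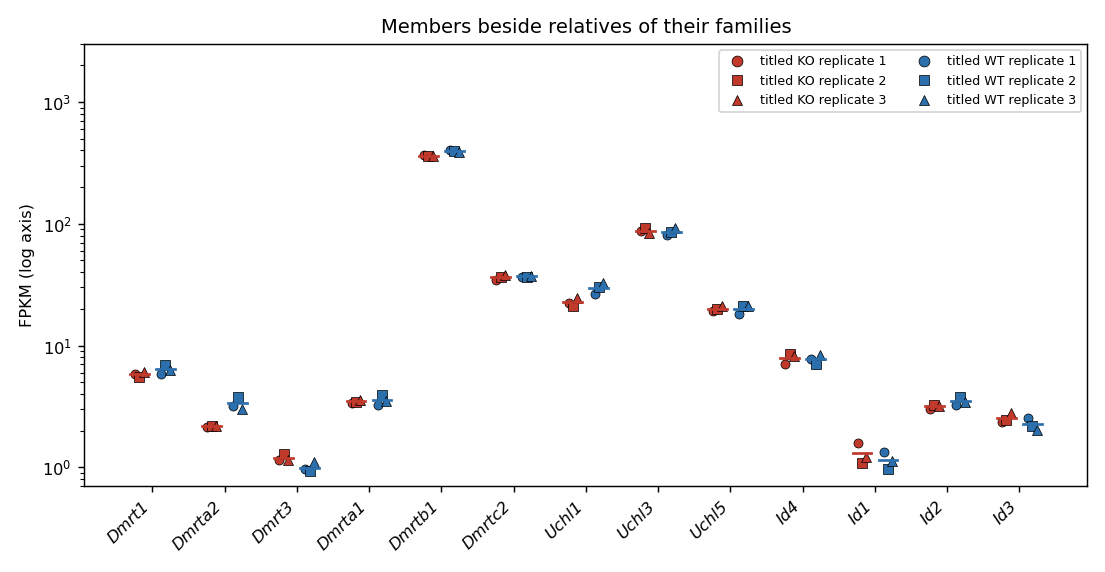
FPKM (log axis) of Dmrt1, Uchl1 and Id4 beside relatives of their families in each library, KO-titled in red left of WT-titled in blue, with a line at each group mean. Dmrta2 sits at 2.16 to 2.20 FPKM in KO-titled libraries and 3.03 to 3.79 FPKM in WT-titled libraries, while Uchl3 and Uchl5 overlap between the groups.

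Stra8, the retinoic acid-induced gatekeeper of meiosis, was at 3.32, 3.37 and 4.50 FPKM in KO-titled libraries and 4.03, 4.54 and 4.55 FPKM in WT-titled libraries. KO-titled replicates 1 and 2 were the low libraries and KO-titled replicate 3 lay within the WT-titled range, so the groups overlapped (log2 fold change -0.19, 95% interval -0.42 to 0.03, limma adjusted p = 0.401). Its 2 AGGTCA half-sites are printed above. Rec8, a meiotic cohesin gene also induced by retinoic acid, was at 26.4, 28.1 and 29.6 FPKM in KO-titled libraries and 26.9, 29.0 and 27.6 FPKM in WT-titled libraries (log2 fold change 0.01, limma adjusted p = 0.944). The symbol Gm4969, now known as Meiosin, the partner of STRA8, was at 3.07 ± 0.47 FPKM in KO-titled libraries and 3.28 ± 0.60 FPKM in WT-titled libraries (SD, n = 3 each; limma adjusted p = 0.786).

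The retinoic acid pathway around Stra8 had 0 called genes among 13 tested of 20 listed (limma), with a median log2 fold change of -0.08. At an unadjusted limma p under 0.05, 1 was lower and 0 were higher. Over all tested genes 1.15% were called, 8.89% were lower and 5.38% higher at that unadjusted p, and the median was -0.04. Aldh1a2, the retinoic acid-making enzyme of germ cells, was at 42.8, 38.8 and 41.4 FPKM in KO-titled libraries, against 46.3, 49.2 and 43.8 FPKM in WT-titled libraries. The groups did not overlap (log2 fold change -0.17, limma adjusted p = 0.263), a pattern seen, lower in KO-titled libraries, in 15.8% of all tested genes. Aldh1a1, the corresponding enzyme of Sertoli cells, was at 118, 79.5 and 90.9 FPKM in KO-titled libraries and 123, 105 and 117 FPKM in WT-titled libraries, which overlapped (log2 fold change -0.27, limma adjusted p = 0.420). Cyp26b1, which degrades retinoic acid, averaged 4.56 ± 0.50 FPKM in KO-titled libraries and 4.90 ± 0.15 FPKM in WT-titled libraries (SD, n = 3 each; limma adjusted p = 0.587). Rdh10, a retinol dehydrogenase, had a positive value (log2 fold change 0.14, limma adjusted p = 0.504). The receptor gene Rara averaged 4.58 ± 0.56 FPKM in KO-titled libraries and 4.51 ± 0.22 FPKM in WT-titled libraries (SD, n = 3 each).

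**Figure D4:**
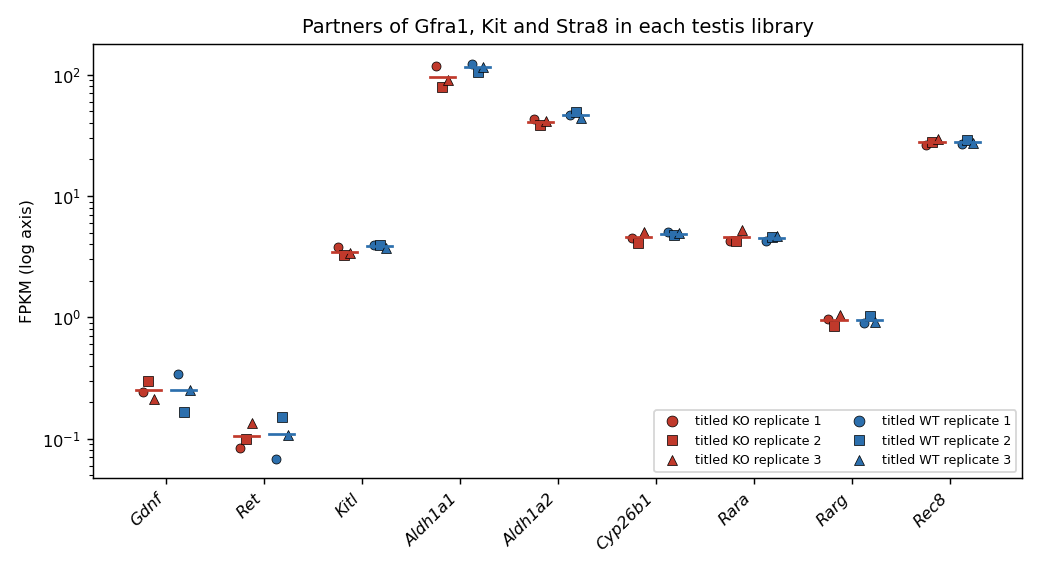
FPKM (log axis) of genes whose products act with GFRA1 (Gdnf, Ret), KIT (Kitl) and STRA8 (Aldh1a1, Aldh1a2, Cyp26b1, Rara, Rarg, Rec8) in each library, KO-titled in red left of WT-titled in blue, with a line at each group mean. The groups overlap in all of these genes except Aldh1a2, at 38.8 to 42.8 FPKM in KO-titled libraries and 43.8 to 49.2 FPKM in WT-titled libraries.

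Other spermatogonial genes were compared as lists. Of 24 further genes of the undifferentiated state, 6 were tested and 0 called by limma (0 in either direction at an unadjusted p under 0.05), with a median log2 fold change of -0.08. Of the 6 tested, the smallest p belonged to Epcam, a surface adhesion molecule, Egr4, a zinc finger factor, and Etv5, a target of GDNF signalling. Their log2 fold changes were -0.16, -0.12 and -0.10 (limma adjusted p = 0.395, 0.553 and 0.568). Among the 18 under the filter, only Sox3 and Cdh1 had groups without overlap, lower in KO-titled libraries, as did 15.8% of all tested genes. Sox3 averaged 0.705 FPKM in KO-titled and 0.974 FPKM in WT-titled libraries, and Cdh1 0.106 and 0.177 FPKM. Without a filter their limma adjusted p was 0.347 and 0.451. Of all 24, 17 had negative values, against 65.7% of all tested genes. Several defining genes were near 0: Nanos2, an RNA-binding protein of stem cells, reached 0.0452 FPKM in KO-titled libraries and 0.0268 FPKM in WT-titled libraries and was listed at 0 in 2 libraries, and T and Pax7, which encode transcription factors of rare stem cell subsets, reached no more than 0.0301 and 0.0160 FPKM in any library. Of 12 further genes of the differentiating state and meiotic entry, 11 were tested and 0 called (limma; at an unadjusted p under 0.05, Dmrtb1 was lower and 0 were higher), with a median of -0.03. Besides Dmrtb1, the smallest p belonged to Ccnd2, a D-type cyclin, and Crabp1, a retinoic acid-binding protein, with log2 fold changes of -0.16 and -0.13 (limma adjusted p = 0.459 and 0.597). Smc1b, a meiotic cohesin, was the next in level after Dmrtb1, at 39.1 ± 0.98 FPKM in KO-titled libraries and 40.7 ± 2.12 FPKM in WT-titled libraries (SD, n = 3 each).

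Ligands and receptors of the stem cell niche gave 0 called genes among 14 tested of 23 listed (limma), with a median log2 fold change of -0.07. At an unadjusted limma p under 0.05 there were 0 in either direction. Over all tested genes 1.15% were called, 8.89% were lower and 5.38% higher at that unadjusted p, and the median was -0.04. Besides Kitl, the smallest p belonged to Inhbb, an inhibin and activin subunit, at -0.17 (limma adjusted p = 0.363) and to Igf1, a growth factor, at -0.14 (limma adjusted p = 0.421).

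Markers of other cells of the testis were read in the same libraries. Negative values were found in 8 of 10 tested Sertoli markers, 9 of 10 Leydig, 5 of 6 peritubular, 6 of 7 macrophage, 2 of 3 endothelial and 7 of 12 spermatocyte markers, and in 1 of 12 spermatid markers. The share over all tested genes was 65.7%. The only marker called over all these lists was Myl9, a myosin light chain of smooth muscle, where 1.15% of all tested genes were called. Myl9 averaged 26.8 ± 0.58 FPKM in KO-titled libraries, against 32.7 ± 1.14 FPKM in WT-titled libraries (SD, n = 3 each). Its log2 fold change was -0.28 (limma adjusted p = 0.0475). That call was lost in 12 of 15 alternatives, among them the omission of any single library (limma adjusted p 0.0785 to 0.173). Summed spermatid markers, most of them protamine and transition protein RNA, were 32297 to 34485 FPKM in KO-titled libraries and 27104 to 31058 FPKM in WT-titled libraries. The libraries did not overlap, and no spermatid gene was called by limma, although 5 of 12 were higher at an unadjusted p under 0.05, against 5.38% of all tested genes. WT-titled replicate 2 had the lowest sum, and the other WT-titled libraries held 28677 and 31058 FPKM. Annotated exons of the removed gene 1700027A15Rik overlap those of the marker Tnp1, which lies on the opposite strand. Tnp1 averaged 5397 FPKM in KO-titled libraries and 5110 FPKM in WT-titled libraries. Whether counting was by strand is not given, and the part of that overlap in the sums was not tested. Summed Sertoli markers, with Clu and Cldn11 the most abundant, were 397 to 442 FPKM in KO-titled libraries and 423 to 480 FPKM in WT-titled libraries, and summed spermatocyte markers were 710 to 742 and 719 to 742 FPKM in the same order. No marker of these lists was at 0 in every library, and the part of these cells in the values of the spermatogonial genes was not tested.

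Within the marker lists the smallest p values were spread over several cell types. In Sertoli cells these were Shbg (log2 fold change -0.22), Inha (-0.21) and Gata4 (-0.14), and in Leydig cells Hsd3b1 (-0.29), Hsd17b3 (-0.22) and Cyp17a1 (-0.19), with Insl3 the most abundant at 1378 ± 130 FPKM in KO-titled libraries and 1453 ± 8.16 FPKM in WT-titled libraries (SD, n = 3 each). Besides Myl9, the smallest p among peritubular genes belonged to Cnn1 (-0.24) and Acta2 (-0.15). The rest of that list were Myh11 (-0.13), Tagln (-0.0014) and Des (0.02). Macrophage genes were Mrc1 (-0.14), Cd68 (-0.13) and C1qa (-0.10), with Lyz2 and C1qb the most abundant, and endothelial genes were Pecam1 (-0.32), Cdh5 (-0.12) and Vwf (0.04). Spermatocyte genes were Dmc1 (-0.20), Insl6 (0.14) and Spag6 (-0.15), with Sycp3 among the most abundant (0.0022). Spermatid genes were Tnp2 (0.35), Prm1 (0.25) and Prm2 (0.19), with limma adjusted p of 0.0735, 0.0682 and 0.106. All 3 passed with equal library totals (limma adjusted p = 0.0218, 0.0202 and 0.0395) and without WT-titled replicate 3 (0.000987, 0.0115 and 0.0267). With upper-quartile scaling Tnp2 and Prm1 passed as well (0.0418 and 0.0478), and the other alternatives called none of the 3.

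**Figure D5:**
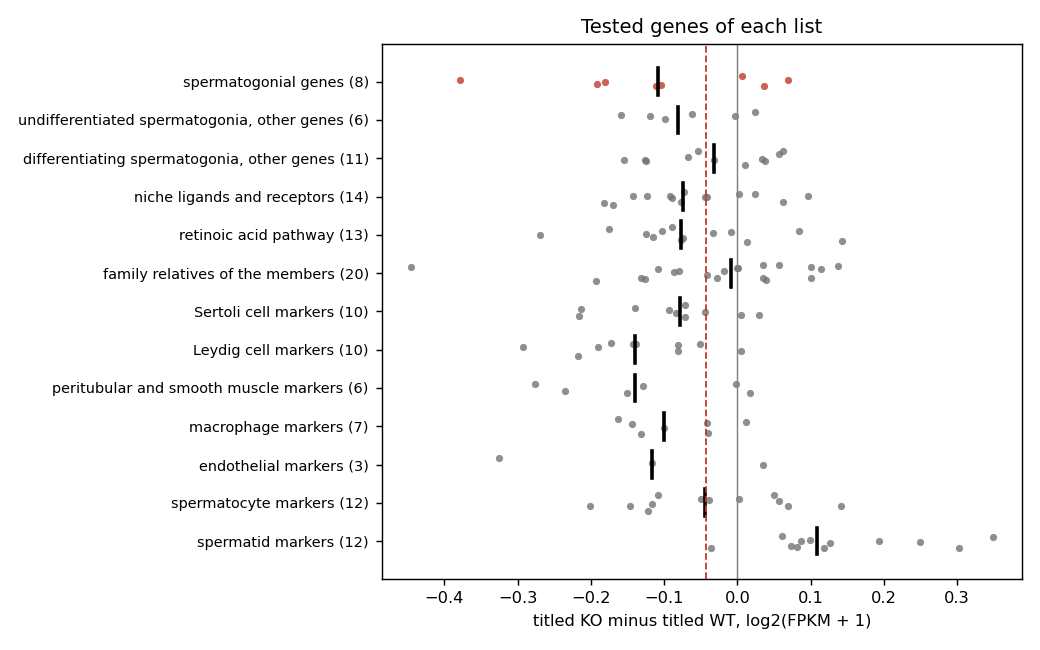
Log2 differences on the log2(FPKM + 1) scale, KO-titled minus WT-titled, of the tested genes of each list (number tested in parentheses), with a black bar at each list's median and a dashed line at the median of all tested genes (-0.04). The spermatogonial genes run from -0.38 to 0.07 with a median of -0.11, and the spermatid markers have the highest median, 0.11.

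All 10 members lie on autosomes in GENCODE M21 (GRCm38, the assembly of mm10), on chromosomes 2 (Sall4 and Sohlh1), 3 (Sohlh2), 5 (Kit and Uchl1), 6 (Stra8), 9 (Zbtb16), 13 (Id4) and 19 (Gfra1 and Dmrt1). Kit spans 75574916 to 75656722 and Uchl1 66676091 to 66687234 of chromosome 5, both on the plus strand. Annotated exons of another gene overlap those of Gfra1, Id4, Sall4 and Uchl1. No other gene matched a member at 90% identity over 50% of its longest transcript.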

How the data were processed

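Testis RNA was extracted with Trizol and made into directional NEBNext Ultra II libraries, per the labels' protocols. The submitters' processing notes name HISAT2 and mm10, without versions; quantifier, gene models and strandedness of the counting: not given in the sources used here. The deposited values were taken as FPKM, scaled by the authors to length and depth, from the values themselves: fractional, with totals of 393622 to 413604 that differ between libraries. Rows were summed per symbol (333 symbols had several rows, none of them a member). For the test, limma 3.58.1 (R 4.3.3) was run with a trend and robust moderation on log2(FPKM + 1). A gene entered if either group averaged 1 FPKM or more, which 12952 did, and p-values were adjusted by Benjamini-Hochberg over all of them, called below 0.05. Changes of low genes are understated on this scale. The fit was tested on simulated data. The design allowed for counts; the files hold FPKM, so its log-scale test was used.

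Members and lists were chosen with earlier results of these data known. Named genes are the members, the removed gene, fixed partners, genes that define a cell type at or near 0 and, in each list, called genes, the 3 with the smallest p and the 2 with the highest mean; other relatives shown were chosen after their values were seen. Depth was estimated from genes with 1 annotated transcript, whose lowest values times length cluster at 1 fragment. Near copies were sought with BLAST 2.17.0. Alternatives were 2 pseudocounts, 2 filters, 3 scalings, no robust estimation, a replicate block and each library left out. Figures were drawn with matplotlib 3.10.9.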

Additional observations from a re-analysis of the deposited data

How the results depend on the processing

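None of the 10 members was called under any alternative except Uchl1 with equal library totals, where the count of members called was 1. Of the spermatid markers named, Tnp2 and Prm1 gained a call in 3 alternatives and Prm2 in 2. Over all genes, the number called higher was 56 without a filter and 32 with the replicate block, and 49 to 184 with single libraries left out (49 without KO-titled replicate 2, 54 without KO-titled replicate 3, and 52, 67 and 184 without WT-titled replicates 1, 2 and 3); the number called lower was 28 with median-of-ratios scaling, 18 with the replicate block, and 23 to 49 with single libraries left out (24 and 23 without KO-titled replicates 2 and 3, 29 without WT-titled replicate 1). The split of 102 higher and 47 lower became 121 and 33 with upper-quartile scaling. The removed gene had a log2 fold change of -14.89 with a pseudocount of 0.01, where limma's adjusted p was 0.0644. Its KO-titled values were 0.385, 0 and 0 FPKM, which a small pseudocount spreads apart on the log scale. The part of that spread in the p was not tested. With equal library totals the values of Gfra1, Sycp3 and Rec8 turned to -0.0020, -0.011 and -0.0029. With single libraries left out, signs turned for values near 0: Gfra1 ranged from -0.038 to 0.037, Id4 from -0.022 to 0.11, Rec8 from -0.028 to 0.050, Sycp3 from -0.026 to 0.029, Rara from -0.068 to 0.058, Gm4969 from -0.155 to 0.040, Uchl3 from -0.0088 to 0.083, Cd68 from -0.28 to 0.046, Lyz2 from -0.29 to 0.083 and C1qb from -0.15 to 0.074. Of 916 values of single genes under alternatives, 867 kept their direction and side of the threshold. For genes under the filter, staying within the spread of the libraries was counted instead. That count says little: the filters, the fit without robust estimation and the replicate block leave each difference unchanged. Of these genes, only Dmrta2 and Myl9 were called in the main fit. Same-numbered libraries did not deviate together (correlations of 0.065, -0.129 and 0.061, and not every library correlated best with its own number), so the replicate number was not taken as pairing. The filter kept Zbtb16 and Sall4 out of the main test. Their lowest library values were 9.28 and 1.76 times the floor of 3 fragments on the shortest coding transcript. They remain low genes, and the depth is itself an estimate.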

Other observations

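Single libraries within a group often stood highest over the spermatogonial genes. KO-titled replicate 3 was the highest of its group in 7 of the 10 members and KO-titled replicate 1 in 0, while WT-titled replicate 3 was the highest of its group in 6 and WT-titled replicate 1 in 0. The same held in the Sertoli markers, where KO-titled replicate 3 was the highest in 8 of 12 and WT-titled replicate 1 the lowest in 10 of 12. In the spermatocyte markers KO-titled replicate 3 was the highest in 8 of 12, and in the spermatid markers KO-titled replicate 2 and WT-titled replicate 3 were each the highest of their group in 10 of 12. WT-titled replicate 2 was the lowest of its group in 11 of 12 spermatid markers and the highest in 6 of 6 peritubular and 7 of 8 macrophage markers.

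Ratios within a library, chosen after the values were seen, overlapped between the groups for Kit over Gfra1, at 1.64, 1.71 and 2.10 in KO-titled libraries and 2.08, 2.19 and 2.12 in WT-titled libraries. For Stra8 over Rec8 they were 0.125, 0.120 and 0.152 in KO-titled libraries and 0.150, 0.156 and 0.165 in WT-titled libraries, which overlapped as well. Zbtb32, whose product is a relative of PLZF, exceeded Zbtb16 by 73.3, 66.6 and 47.8 times in KO-titled libraries and by 50.04, 47.4 and 66.2 times in WT-titled libraries.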
